A study of Homo sapiens with 8 samples.

Results

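The DDIT4 and P4HA1 locus is a 1.4 Mb stretch of human chromosome 10, in band 10q22, at chr10:73600001-75000000 on the hg19 build. It holds the start sites of 6 named genes, in the order SPOCK2, ASCC1, ANAPC16, DDIT4, DNAJB12 and P4HA1. It was chosen because its SON TSA-seq signal was lower after PT2399 in the same tables that are described here, so its change is given as a description and is not tested again. The locus comprised 118 of the 278316 deposited 100 kb windows and 244 of the 556938 deposited 50 kb windows, counted as those lying wholly inside it. All 118 and all 244 had a log2 concentration of at least 2 with both treatments, the minimum used here for calling a window measured.

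The cells were 786-O, an established clear cell renal carcinoma line that lacks functional VHL, so that HIF-2α accumulates without hypoxia. They were treated for 3 h with the vehicle DMSO or with 2 µM PT2399, a small molecule that blocks the dimer of HIF-2α and ARNT. Each treatment had 2 SON pulldown libraries and 2 input libraries, 8 in all, from a single cell line. The labels do not say that replicates came from separate cultures, so the deposited p-values may measure technical spread. In 4 of the 8 libraries the title disagreed with the antibody or treatment field, and the titles were followed here. The direction of every change rests on the deposited column names control and treatment, with DMSO taken as control.

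SON is a scaffold of nuclear speckles, bodies rich in splicing factors and other RNA processing proteins. In TSA-seq a peroxidase directed to SON deposits tyramide-biotin on nearby chromatin. More sequenced DNA from a window is therefore read as lying closer to, or more often near, speckles. How the inputs entered the deposited values was not given, so levels of different windows may also differ for other reasons. HIF-2α and ARNT bind DNA as a pair at hypoxia response elements, whose core reads ACGTG or GCGTG. DDIT4 (also REDD1) restrains mTORC1 signalling under stress, and P4HA1 is a catalytic subunit of the prolyl hydroxylase that matures collagen. Both are textbook hypoxia-responsive genes.

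The promoters of DDIT4 and P4HA1 are shown because these are the hypoxia-responsive genes of the locus and each starts inside a block of lower windows. Each sequence is the 250 bases before the RefSeq start on GRCh38, written 5′ to 3′ on the gene's own strand, with capitals marking the cores ACGTG and GCGTG on either strand. GRCh38 positions were not set against the hg19 windows.
DDIT4, plus strand, chr10:72273674-72273923: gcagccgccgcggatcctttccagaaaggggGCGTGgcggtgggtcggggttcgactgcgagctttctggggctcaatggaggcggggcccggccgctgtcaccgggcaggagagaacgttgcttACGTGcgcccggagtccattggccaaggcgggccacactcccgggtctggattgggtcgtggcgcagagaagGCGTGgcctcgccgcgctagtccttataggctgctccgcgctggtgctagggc
P4HA1, minus strand, chr10:73096867-73097116: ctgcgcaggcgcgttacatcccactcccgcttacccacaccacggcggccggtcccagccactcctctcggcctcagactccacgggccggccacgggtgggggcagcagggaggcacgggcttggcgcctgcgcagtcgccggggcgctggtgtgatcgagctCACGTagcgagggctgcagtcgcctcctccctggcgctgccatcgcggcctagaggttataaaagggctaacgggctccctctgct
The DDIT4 promoter held 3 cores, 1 ACGTG and 2 GCGTG, whose first bases lay 219, 125 and 53 bases before the start. The P4HA1 promoter held 1, written CACGT because ACGTG reads on the opposite strand, 86 bases before the start. At least 1 core was present in 49.3% of 22199 promoters of protein-coding genes of the same length, and at least 2 in 23.2%. ANAPC16 and DNAJB12 had 1 core each, the 3 listed ASCC1 starts had 3, 1 and 1, and the 2 listed SPOCK2 starts had 1 and 0. A match of these letters is a description and does not show that a factor binds there.

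In DMSO the locus lay among the SON-rich windows of chromosome 10. Its log2 concentrations ran from 8.45 to 11.02 in 100 kb windows (median 9.41), and from 7.93 to 10.21 with PT2399 (median 8.97). The concentration is the authors' mean of 2 libraries, so no standard deviation goes with it. The DMSO profile peaked at 11.02 in tied, overlapping windows from chr10:74000001-74100000 to chr10:74020001-74120000. The last of these was also the PT2399 peak, at 10.21. It starts just before the DDIT4 start and reaches past that of DNAJB12. In 50 kb windows the concentrations ran from 7.09 to 10.17 in DMSO (median 8.44) and from 6.59 to 9.51 with PT2399 (median 7.90). The ranges of the treatments overlapped because the level varied more along the locus than between treatments.

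**Figure D1:**
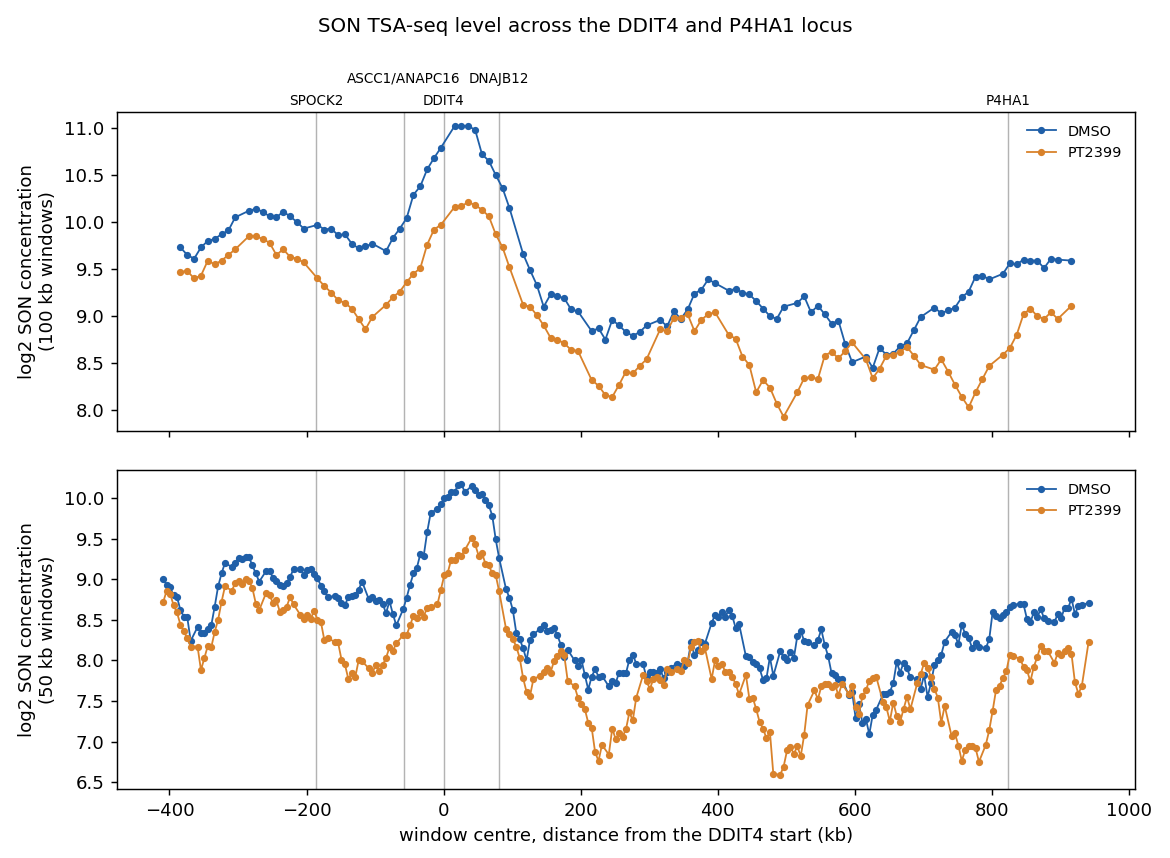
Log2 SON concentration in DMSO (blue) and PT2399 (orange) for each window of the locus, against the distance of the window centre from the DDIT4 start in kb, with 100 kb windows above and 50 kb windows below. Points are the authors' means of 2 libraries and grey lines mark the gene starts. The PT2399 trace lies below the DMSO trace over SPOCK2 to DNAJB12 and over P4HA1, and meets it at places between them.

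The change with PT2399, taken as PT2399 minus DMSO on the log2 scale, ran from -1.23 to 0.21 over the 118 windows of 100 kb, with a median of -0.535. It was below 0 in 116 windows and above 0 in 2. In 50 kb windows it ran from -1.68 to 0.66 with a median of -0.51, and 227 of 244 windows were below 0. The median change of measured windows was -0.13 (100 kb) and -0.12 (50 kb) over all chromosomes. After subtraction of each set's own median, which is called recentring here, the locus medians were -0.41 and -0.39.

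In the authors' deposited tables, 38 of the 118 windows of 100 kb were lower at an FDR of at most 0.01 and 0 were higher. The same threshold called 1.55% of all measured 100 kb windows lower, and 0.727% of those in the rest of chromosome 10, and it called 0.0853% and 0.208% higher. In 50 kb windows the authors' deposited tables gave 31 of 244 lower and 0 higher, against 0.357% of all measured windows and 0.301% in the rest of chromosome 10, with 0.0291% and 0.0393% higher. The locus was selected on this contrast, so these shares are a description. The locus held 38 of the 66 lower 100 kb windows of chromosome 10 and 31 of the 54 lower 50 kb windows, with 2.96% and 3.09% of the measured windows. Calls with recentring also replaced the deposited FDR by an approximate error and a new adjustment over measured windows. They kept 20 of the 38 and 16 of the 31, against 0.161% and 0.0398% of all measured windows and 0.13% and 0.0786% of those in the rest of chromosome 10. The approximate error and new adjustment without recentring gave 38 at 100 kb and 26 at 50 kb. Windows of the 9 sets overlap by design, so these counts are not counts of independent sites.

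**Figure D2:**
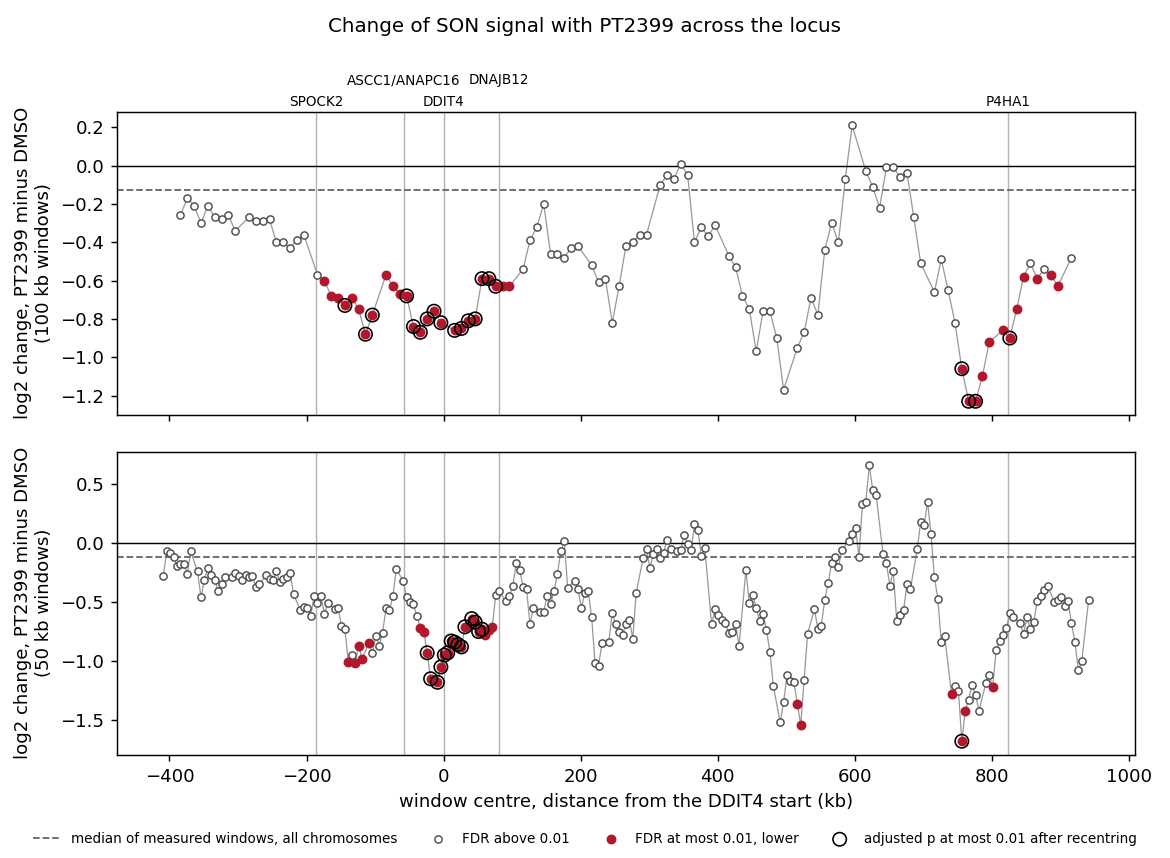
Log2 change with PT2399 for each window of the locus against the distance of its centre from the DDIT4 start in kb (100 kb windows above, 50 kb below). Filled red points had an FDR of at most 0.01 in the authors' deposited tables, ringed points an adjusted p of at most 0.01 after recentring, and the dashed line is the median of measured windows on all chromosomes. Called 100 kb points form 1 group from SPOCK2 to DNAJB12 and another just before and over P4HA1, and at 50 kb 2 more lie between them.

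The called 100 kb windows merged into 2 blocks. The first, chr10:73810001-74180000, spanned 370 kb with 26 called windows and held the starts of SPOCK2, ASCC1, ANAPC16, DDIT4 and DNAJB12. Changes of these windows ran from -0.88 to -0.57, with a median of -0.71. The deepest, chr10:73870001-73970000, went from 9.74 to 8.86 and held none of these starts, lying between those of SPOCK2 and ASCC1. The second block, chr10:74740001-74980000, spanned 240 kb with 12 called windows and held the start of P4HA1. Its changes ran from -1.23 to -0.57, with a median of -0.88. The DDIT4 and P4HA1 starts lie 823 kb apart, and the blocks are separated by 560 kb. With recentring the blocks shrank to 320 kb with 16 windows and 170 kb with 4.

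DDIT4 had the highest SON level of the 6 gene starts and, in 100 kb windows, the narrowest range of change. In the 100 kb window centred nearest its start, chr10:73980001-74080000, the log2 concentration was 10.79 in DMSO and 9.97 with PT2399, a change of -0.82 with an FDR of 1.04e-17 in the authors' deposited table. The linear signal left was 56.6% of that in DMSO. All 9 windows of 100 kb that hold the DDIT4 start were called lower, with changes from -0.87 to -0.76, and all 9 remained called with recentring. At 50 kb all 9 were again called with and without recentring, with changes from -1.18 to -0.83 and a median of -0.93. An approximate standard error of the change, worked out from each deposited p-value, was 0.103 (median over the 100 kb windows) and 0.133 (50 kb).

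The change differed in size among the 50 kb windows that hold the DDIT4 start. The 50 kb window chr10:74000001-74050000, which holds the DDIT4 start in its later part, went from 9.87 in DMSO to 8.69 with PT2399, a change of -1.18 with an FDR of 1.73e-13 in the authors' deposited table. The window chr10:74030001-74080000, which starts just before it, went from 10.16 to 9.30, a change of -0.86. The lowest FDR at 50 kb in the authors' deposited table, 5.73e-14, belonged to chr10:73990001-74040000, where 9.81 became 8.66. The summit of the 50 kb profile was at chr10:74035001-74085000 in DMSO (10.17) and at chr10:74050001-74100000 with PT2399 (9.51). Among the windows that hold the start, those reaching toward SPOCK2 had the more negative values, and whether these differ beyond error was not tested. Windows wholly on the SPOCK2 side of the start varied. The nearest, chr10:73980001-74030000, changed by -0.75 and was called lower. Further out, chr10:73940001-73990000 changed by -0.22 and was not called, and chr10:73880001-73930000 changed by -1.02 and was called.

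ASCC1, a subunit of the ASC-1 coactivator complex that also acts in alkylation repair, and ANAPC16, a small subunit of the anaphase-promoting complex, start at the same position to the nearest kb and share all their windows. They lie 58 kb before DDIT4. In their central 100 kb window the log2 concentration was 10.04 in DMSO and 9.36 with PT2399, a change of -0.68, and all 9 windows were called lower (-0.87 to -0.57), 6 of them with recentring. However, 4 of the 9 also hold the DDIT4 start, with changes from -0.87 to -0.76, and the 5 that do not ranged from -0.78 to -0.57. In 50 kb windows, which share no member with DDIT4, only 1 of 9 was called, 0 with recentring, and the median was -0.50. The central one, chr10:73950001-74000000, went from 8.63 to 8.31, a change of -0.32 with an FDR of 0.397 in the authors' deposited table. At 100 kb the median was -0.82 in the 4 windows that also hold the DDIT4 start and -0.67 in the 5 that do not. Their ranges overlapped, and whether they differ beyond error was not tested.

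DNAJB12, a membrane-bound Hsp40 co-chaperone of the endoplasmic reticulum, starts 81 kb beyond DDIT4. Its central 100 kb window went from 10.50 in DMSO to 9.87 with PT2399, a change of -0.63, and 7 of 9 windows were called lower (-0.81 to -0.39), 5 of them with recentring. At 50 kb 4 of 9 were called, and 1 with recentring. The central 50 kb window went from 9.26 to 8.85, a change of -0.41 with an FDR of 0.151 in the authors' deposited table. The 4 called ones had changes from -0.78 to -0.71 and were those reaching furthest toward DDIT4.

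SPOCK2, a secreted proteoglycan of the SPARC family, starts 186 kb before DDIT4. Its central 100 kb window went from 9.97 in DMSO to 9.40 with PT2399, a change of -0.57 with an FDR of 0.0244 in the authors' deposited table. Of its 9 windows, 4 were called lower, 1 with recentring, and the range was -0.73 to -0.36. At 50 kb 0 of 9 were called in the authors' deposited tables, where the lowest FDR was 0.0693, with changes from -0.62 to -0.45. Beyond its start, toward ASCC1, lay a separate run of 5 called 50 kb windows, chr10:73870001-73950000. The deepest of them, chr10:73880001-73930000, went from 8.81 to 7.79, a change of -1.02.

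P4HA1 had a lower SON level than DDIT4 and the most negative median change of the 6 starts in 100 kb windows, -0.86. Its central 100 kb window, chr10:74810001-74910000, went from 9.56 in DMSO to 8.66 with PT2399, a change of -0.90 with an FDR of 0.000157 in the authors' deposited table and 53.6% of the signal left. Of its 9 windows, 8 were called lower (-1.23 to -0.51), and 2 with recentring. At 50 kb 1 of 9 was called, 0 with recentring, and the changes ran from -1.22 to -0.59 with a median of -0.77. The approximate standard error was 0.18 at 100 kb and 0.24 at 50 kb (medians), larger than at DDIT4. Whether the change at P4HA1 differed from that at DDIT4 was not tested.

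Of the 100 kb windows near P4HA1, the 2 with the most negative change were tied, 1 holding its start and 1 not. The window chr10:74760001-74860000, which holds the start near its end, went from 9.42 to 8.19, a change of -1.23 with an FDR of 8.43e-06 in the authors' deposited table. The window chr10:74750001-74850000, which ends before the start, went from 9.26 to 8.03, a change of -1.23 with an FDR of 5.51e-06 in the authors' deposited table. At 50 kb the deepest window, chr10:74765001-74815000, ended 42 kb before the start, on the side toward which this minus-strand gene is transcribed, and went from 8.44 to 6.76. Its change of -1.68, with an FDR of 0.000438 in the authors' deposited table, was the largest of the locus and left 31.2% of the DMSO signal. Where the gene body ends within these windows was not analysed here.

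**Figure D3:**
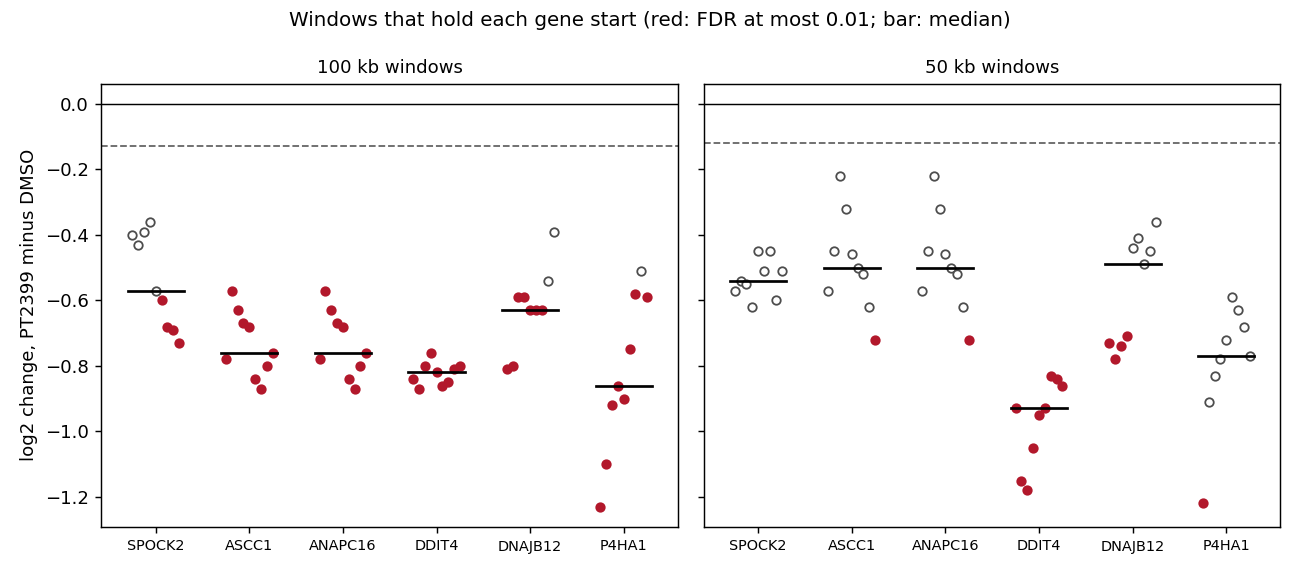
Log2 change with PT2399 in the 9 windows of 100 kb (left) and 50 kb (right) that hold each gene start, with filled red points at an FDR of at most 0.01 in the authors' deposited tables and bars at the medians. The dashed line is the median of measured windows on all chromosomes, and ASCC1 and ANAPC16 share the same windows. DDIT4 is the only gene start with all 9 windows called at both sizes.

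Between the blocks, over chr10:74180001-74740000, the 42 windows of 100 kb had changes from -1.17 to 0.21 with a median of -0.41, and 0 were called. The lowest FDR there was 0.013 in the authors' deposited tables. At 50 kb 2 of 93 windows were called, which merged into chr10:74525001-74580000. The deeper went from 8.36 to 6.82, a change of -1.54 with an FDR of 0.00487 in the authors' deposited table. In the same stretch 13 windows of 50 kb were above 0. The largest rise in value, at chr10:74630001-74680000, was from 7.09 to 7.75, with an FDR of 0.359 in the authors' deposited table. The values between DDIT4 and P4HA1 thus varied, with places of no lower signal, and whether they differ beyond error was not tested.

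At the threshold itself, the last 100 kb window inside was chr10:74870001-74970000 (-0.57, FDR 0.00794 in the authors' deposited table) and the first outside was chr10:74530001-74630000 (-0.78, FDR 0.013 in the authors' deposited table). At 50 kb they were chr10:73900001-73950000 (-0.85, FDR 0.00995 in the authors' deposited table) and chr10:74755001-74805000 (-1.21, FDR 0.0101 in the authors' deposited table). A window that was not called could therefore have a larger change than one that was.

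In the flanks the median change was smaller, which is a description because the locus was selected on this contrast. In the 500 kb before the locus, 37 windows of 100 kb had changes from -0.52 to 0.21 with a median of -0.17. In the 500 kb after it, 37 windows ran from -0.51 to -0.01 with a median of -0.27. The first 210 kb of the locus itself, before the first block, also had a median of -0.27 (11 windows of 100 kb), with 0 called at either size. In both flanks 0 windows were called at either size in the authors' deposited tables, where the lowest 100 kb FDR was 0.0327. The rest of chromosome 10 had a median change of -0.05 at both sizes, with quartiles of -0.40 and 0.34 over 3851 measured windows of 100 kb.

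The spread of changes widened at low concentration, so each locus window was set beside measured windows of its own set in the rest of chromosome 10 whose mean log2 concentration lay within 0.25. There were 8 to 59 such windows for each 100 kb locus window. The locus window was below their median change in 109 of 118 cases at 100 kb and in 218 of 244 at 50 kb, and the median difference was -0.46 and -0.43. In 46 of the 118 windows of 100 kb no matched window was as low, including 36 of the 38 called ones. At 50 kb this held for 37 of 244, including 28 of the 31 called ones. Every 50 kb window holding the SPOCK2 or P4HA1 start had some matched window as low. For DDIT4 no matched window was as low in any of its 9 windows at either size, although only 8 to 25 (100 kb) and 11 to 32 (50 kb) windows of chromosome 10 reached that level.

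At the highest levels the locus and the other windows overlapped little at 100 kb. Among windows of 100 kb with a mean log2 concentration of at least 10, the 13 of the locus changed by -0.87 to -0.29 (median -0.80), and the 180 in the rest of chromosome 10 by -0.41 to 0.39 (median -0.09). Of the 13, 12 lay below the lowest of the 180. Those 12 form a single run of overlapping windows around DDIT4, chr10:73950001-74170000, so they are not 12 separate sites. Windows of the rest of the chromosome overlap as well, as do those of 50 kb. The locus was selected on this change, so the gap is a description. At 50 kb, with a mean of at least 9, the 29 locus windows changed by -1.18 to -0.25, and 17 of them lay below the lowest of 368 others, which was -0.69.

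**Figure D4:**
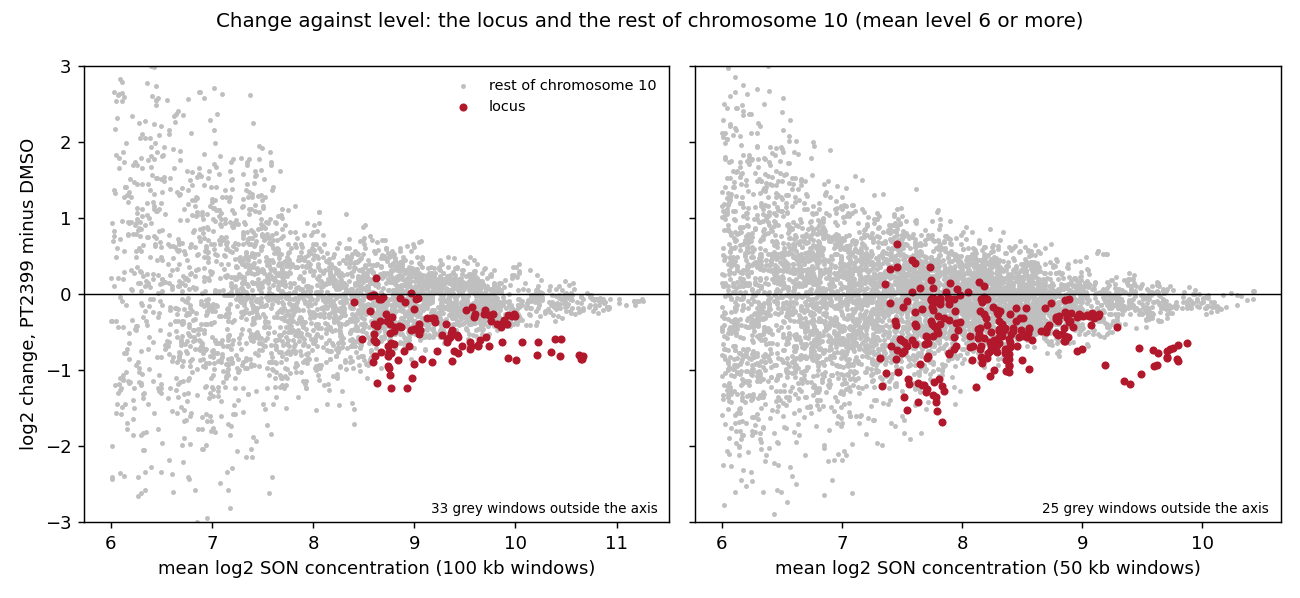
Log2 change with PT2399 against the mean log2 SON concentration of measured windows, for 100 kb (left) and 50 kb (right), with the locus in red and the rest of chromosome 10 in grey. Windows of low mean concentration and a few extreme grey ones are not drawn. At high concentration the grey points narrow toward 0, and the red points around DDIT4 lie below them.

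The order of windows within each treatment does not depend on scaling between treatments. The ranks rest on the same concentrations by which the locus was selected, so they are a description and no separate support. The central 100 kb window of DDIT4 was above 99.1% of measured windows of its set in the rest of chromosome 10 in DMSO and above 95.3% with PT2399. For DNAJB12 these ranks were 97.9% and 94.8%, for ASCC1 and ANAPC16 95.1% and 85.4%, and for SPOCK2 94.4% and 85.9%. P4HA1 moved furthest, from 88.0% to 67.1%. Its level was shared by more windows, with 55 level-matched windows for its central window against 11 for that of DDIT4. DDIT4 and DNAJB12 thus remained among the most SON-rich places of the chromosome after PT2399.

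On the linear scale, where a 100 kb concentration is the sum of those of its 2 windows of 50 kb, the locus kept 68.9% of its DMSO total with PT2399 (median over 9 sets of 100 kb windows, range 67.8% to 69.2%). The rest of chromosome 10 kept 95.2% (94.7% to 95.8%). In the set without overlaps that begins at the first position, 28 windows of 50 kb cover the locus. The window with the DDIT4 start, chr10:74000001-74050000, went from 935.8 to 413, which was 15.0% of the whole loss from 8.34% of the DMSO signal. The next, chr10:74050001-74100000, made up 11.7% of the loss from 10.1% of the DMSO signal. The called windows together made up 43.7% to 65.7% of the loss over the 9 sets of 100 kb windows, from 32.1% to 51.2% of the DMSO signal. Over the sets of 50 kb windows they made up 27.4% to 46.0% of the loss, from 19.2% to 32.0% of the DMSO signal.

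**Figure D5:**
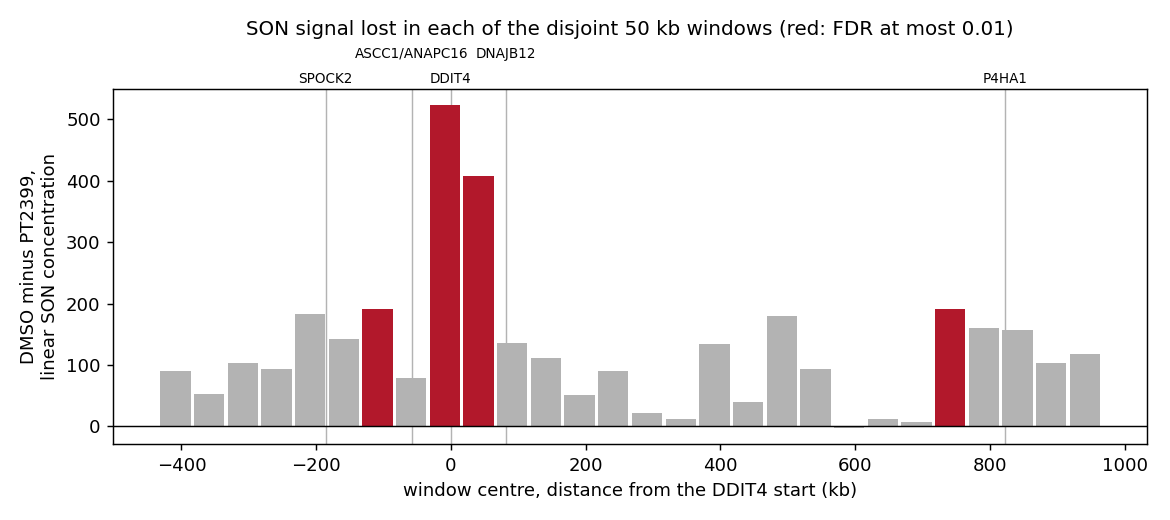
Loss of linear SON concentration (DMSO minus PT2399) in each of 28 non-overlapping 50 kb windows, against the distance of the window centre from the DDIT4 start in kb, with red bars at an FDR of at most 0.01 in the authors' deposited table. The 2 tallest bars stand at and just beyond the DDIT4 start, at 523 and 407.

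The authors also deposited lists of genes lying in lower windows, with symbols and no values. All 6 named genes of the locus were on the 100 kb list, and 5 of 6, without SPOCK2, were on the 50 kb list. These 6 were chosen with results of this contrast known, so their share is a description. Of the 16 protein-coding genes from PSAP to DNAJC9 in the RefSeq order, 9 were on the 100 kb list and 5 on the 50 kb list. These counts include the selected genes, which were 6 of the 9 and all of the 5. Of 20056 protein-coding RefSeq genes, 4.27% were on the 100 kb list and 1.1% on the 50 kb list. NUDT13, ECD and FAM149B1, the neighbours of P4HA1, were on the 100 kb list only. OIT3 and PLA2G12B, which lie between DNAJB12 and P4HA1 in the RefSeq order, were on neither list, nor were PSAP, CHST3 and DNAJC9 at the outer sides of the locus.

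Few other genes of the members' pathways were on these lists, and few protein-coding genes of any kind were (4.27% and 1.1%). Of 19 further genes of mTORC1 control, RPTOR and TSC1 were on the 100 kb list and 0 on the 50 kb list. Of 14 further genes of collagen hydroxylation and 3 of the ASC-1 complex, 0 were on either list. SPOCK1 was the only one of 7 other SPARC family genes, and ANAPC15 the only one of 15 other anaphase-promoting complex genes, both on the 100 kb list alone. DNAJB6 was the only one of 9 other DNAJB genes and was on both lists. With so few genes per pathway, whether these shares differ from the backgrounds of 4.27% and 1.1% was not tested. They concern only position in a lower window, since RNA was not measured here.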

How the data were processed

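SON pulldown and input DNA of 786-O cells was sequenced, and the deposited tables compare treatments in windows of 100 kb, shifted by 10 kb over 9 sets, and of 50 kb, shifted by 5 kb over 9 sets. The build hg19 and the tools DiffBind, Bowtie2, bedtools and Picard are named, with no versions or roles, per the submitters' processing notes. How inputs were used, reads counted and libraries scaled was not given in the sources used here. The deposited values, per the file headers, are log2 concentrations for control and treatment, a log2 fold, a p-value and an FDR. No values per library were used and depth is unknown, so no test was fitted to libraries; the authors' FDR at a maximum of 0.01 was the call.

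Changes were computed with Python 3.11.15, numpy 2.4.6, pandas 2.3.3 and scipy 1.17.1. The approximate standard error was the fold over the normal quantile of its p-value, with the median of similar windows where the fold was under 0.1 or p was at least 0.5. Recentred changes over these errors were adjusted by the Benjamini-Hochberg method over measured windows. The matching and recentring steps were run on simulated 100 kb windows of a single set, with normal errors capped at high concentration. That simulation shares the normal error model, so it does not test that model. The genes named were the 6 of the locus, their neighbours in RefSeq order and pathway genes on the deposited lists, which hold symbols only. The members, lists and rules were chosen with earlier results of these data known. Some neighbouring genes are not reported here.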

Additional observations from a re-analysis of the deposited data

How the results depend on the processing

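The median change of the locus, its difference from level-matched windows and the median over gene starts kept their sign under every alternative run. At 100 kb the difference from matched windows ran from -0.5125 to -0.405, and at 50 kb from -0.505 to -0.3675, over wider or narrower matching, matching on either treatment alone and windows of all other chromosomes. Counts depended on the settings. Recentring with the approximate error and a new adjustment, chosen after the data were seen, gave 20 called windows in place of 38 at 100 kb and 16 in place of 31 at 50 kb; without recentring the same step gave 38 and 26. At 50 kb an FDR of at most 0.05 gave 50 and of at most 0.001 gave 18. A single set, which holds windows without overlaps, gave 3, 4 or 5 called windows at 100 kb and 2, 3, 4 or 5 at 50 kb. The called extent of 610 kb became 990 kb at an FDR of 0.05 and 400 kb with 50 kb windows. Among values for single gene starts, 10 moved by over 1.5 times, all in single sets, and none changed sign. No paired analysis was possible because the deposited tables hold group means and no values per library, and for the same reason no replicate could be left out. With 2 libraries per group and unknown depth, the error is known only through the deposited p-values.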

Other observations

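Some neighbouring windows of the locus had like changes and unlike deposited p-values. The 100 kb window chr10:74470001-74570000 changed by -0.90 with an FDR of 0.524 in the authors' deposited table and an approximate standard error of 0.781. The overlapping window chr10:74480001-74580000, in another set, changed by -1.17 with an FDR of 0.0239 in the authors' deposited table and an approximate standard error of 0.348. Near SPOCK2, chr10:73770001-73870000 changed by -0.39 with an FDR of 0.553 in the authors' deposited table and an approximate standard error of 0.345, against 0.169 and 0.175 in the windows beside it. The cause was not tested.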
